A study of Rattus norvegicus with 192 samples.

Results

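Rats of an outbred heterogeneous stock differed in how much Drd1 RNA their nucleus accumbens core held for each unit of Drd2 RNA, and this ratio was used to set apart 72 libraries, 36 with the highest and 36 with the lowest ratio. Drd1 encodes the D1 dopamine receptor and Drd2 the D2 dopamine receptor. The libraries came from 159 with deposited values, of which 147 had Drd1 at 100 CPM or more (counts per 1000000 of the library total) and were ranked by log2(Drd1 CPM / Drd2 CPM). The highest and the lowest 25% of that ranking, rounded down, are compared here as the high-ratio and the low-ratio group, with 75 libraries between them. The libraries were chosen by the measured levels of Drd1 and Drd2, so the values of these genes below are a description, and neither gene enters any count or list. Both genes were present when the genes were fitted and their p-values adjusted, and their own test results were then left out. Both groups are outbred rats with the same tissue and kind of RNA (polyA), and the labels give no genotype, treatment, sex, age or date for them. The label of a rat is an all-digit identifier (numeric, 56 kept libraries) or starts with E21 (76), and 15 further kept libraries carry a corrected E21 label (12), an identifier starting with AA1 (2) or another corrected label (1). Each library was taken as 1 rat. Nothing else in the labels says how the tissue was taken, so the p-values measure the spread between these libraries.

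The accumbens core is part of the ventral striatum and is built mostly of medium spiny neurons, the GABA-releasing projection cells of the striatum. D1-type cells couple the D1 receptor through Golf and adenylyl cyclase to cyclic AMP and also make the peptides dynorphin and substance P, while D2-type cells couple the D2 receptor through Gi against cyclic AMP and make enkephalin together with the adenosine 2A receptor. Cholinergic and GABA interneurons, glia and vessels make up most of the rest, and a further group of D1-type cells, called eccentric or island cells, carries its own marker genes. These are bulk samples, so fewer cells of a type and less RNA per cell cannot be told apart.

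The RefSeq promoter windows of the genes that set the ranking are shown first, to identify both loci. In RefSeq's promoter table on rat assembly GRCr8, which covers 250 bases before to 50 bases after a transcript start, the Drd1 window is chr17:10546354-10546653 (plus strand) and the Drd2 window is chr8:58605153-58605452 (plus strand). The Drd2 window sits on the start the deposited table gives for the gene. The transcript start behind the Drd1 window lies 1116 bases downstream of the start in the deposited table (17:10545488). The whole Drd1 window thus lies after that gene start, and the sequence before that start is not shown. Capitals mark the GC-box letters GGGCGG on either strand.
Drd1: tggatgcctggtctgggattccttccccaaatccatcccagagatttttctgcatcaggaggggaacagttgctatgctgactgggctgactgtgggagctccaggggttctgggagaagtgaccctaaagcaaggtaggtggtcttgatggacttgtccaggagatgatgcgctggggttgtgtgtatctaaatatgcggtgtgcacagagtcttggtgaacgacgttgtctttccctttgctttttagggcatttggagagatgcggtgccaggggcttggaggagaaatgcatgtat
Drd2: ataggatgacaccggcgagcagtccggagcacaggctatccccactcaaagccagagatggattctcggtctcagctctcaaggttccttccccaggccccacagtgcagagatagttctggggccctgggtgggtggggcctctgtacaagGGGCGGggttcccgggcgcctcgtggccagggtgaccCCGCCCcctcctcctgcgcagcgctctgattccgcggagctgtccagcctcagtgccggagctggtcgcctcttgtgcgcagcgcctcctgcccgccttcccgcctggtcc
The Drd2 window held 2 copies of GGGCGG and the Drd1 window 0, while 33.1% of 33469 promoter windows of 300 bases hold at least 1. Neither window held TATAAA on either strand, which is found in 14.2% of the windows. These are letter matches only, and those of the Drd1 window do not describe the sequence before the deposited start of Drd1.

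The ratio ran from 0.32 to 1.26 on the log2 scale, which is 1.25 to 2.40 Drd1 counts for each Drd2 count, so Drd1 was above Drd2 in all 147 kept libraries. Counts were not divided by transcript length, so this is no order of the 2 genes in molecules. The high-ratio group began at 0.972, with the next library below it at 0.970, and the low-ratio group ended at 0.667, with the next library above it at 0.673. The groups thus border closely on the libraries between them. The Drd1 minimum left out 12 libraries with Drd1 between 1.61 and 20.0 CPM, far under the lowest kept value of 154 CPM. Their Drd2 had a median of 121 CPM and their log2 ratio a median of -4.90 (from -6.21 to 1.45).

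**Figure D1:**
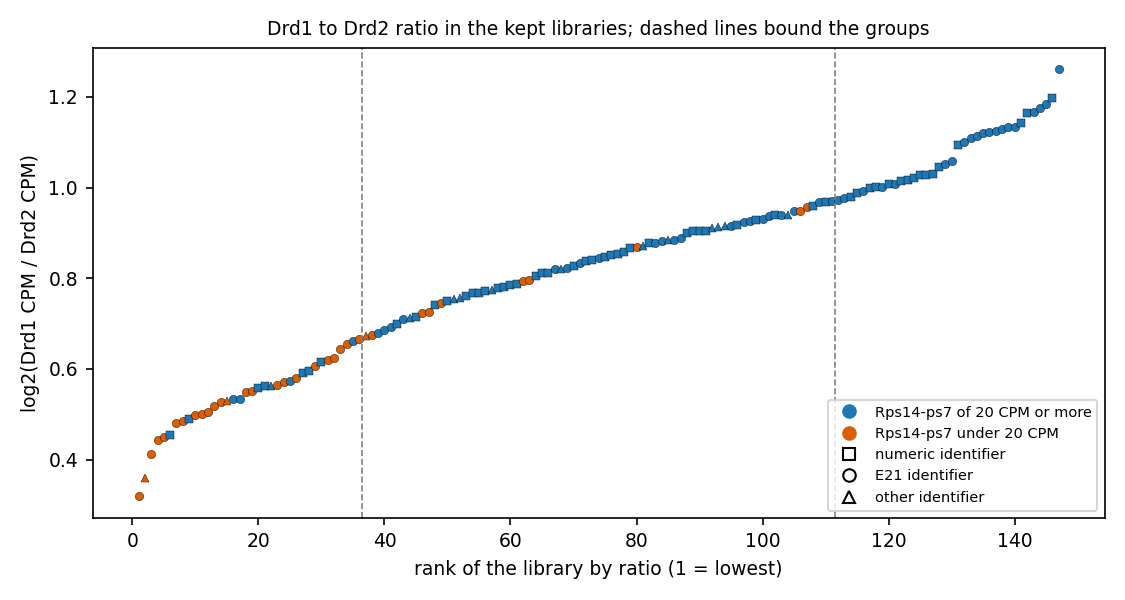
Each point is 1 of the 147 kept libraries, placed by its rank (horizontal) and its log2 ratio of Drd1 to Drd2 CPM (vertical), with colour for the level of Rps14-ps7 and shape for the identifier format. The ratio climbs from 0.32 to 1.26, and the 24 libraries with low Rps14-ps7 in the low-ratio group have no counterpart in the high-ratio group.

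Drd1 was between 235 and 441 CPM in the high-ratio group (median 375.8) and between 181 and 386 CPM in the low-ratio group (median 287). Drd2 was between 110 and 220 CPM in the high-ratio group (median 177) and between 122 and 249 CPM in the low-ratio group (median 204). The ranges of the groups overlap for both genes, with the median of Drd1 higher and that of Drd2 lower in the high-ratio group.

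**Figure D2:**
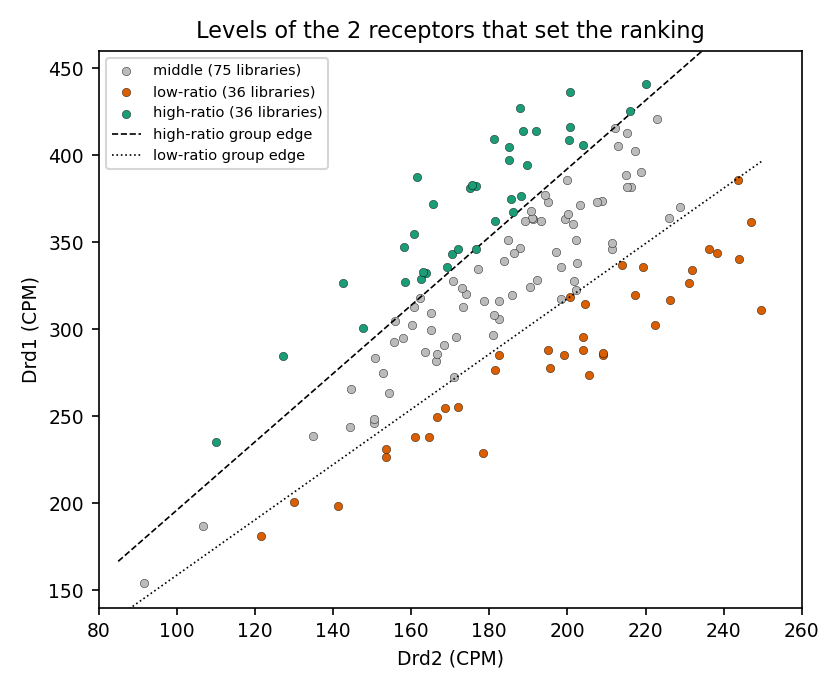
Drd1 CPM (vertical) against Drd2 CPM (horizontal) in the kept libraries, with the groups in colour and the edges of both groups as lines of constant ratio. Drd2 spans 110 to 220 CPM in the high-ratio group and 122 to 249 CPM in the low-ratio group.

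Libraries that stand apart have to be named before the gene results. Rps14-ps7, a pseudogene copy of a ribosomal protein gene, was at 10.4 CPM or less in 34 kept libraries and at 23.0 CPM or more in the other 113. The boundary of 20 CPM between them was chosen after the values were seen, no label names the set, and reads of a pseudogene can be shared with its parent gene. All 34 libraries with low Rps14-ps7 had E21 (31), AA1 (2) or other corrected (1) labels. Of the 36 libraries of the low-ratio group 24 belonged to this set, and of the 36 libraries of the high-ratio group 0 did. The median ratio was 0.576 in the low set and 0.904 in the other 113 libraries. Much of the ratio ranking over all kept libraries is thus also a ranking of these sets, and set and ratio cannot be told apart there. Counts of gene groups below are therefore given over all kept libraries and again for groups drawn anew by the same 25% rule within the 113 libraries with Rps14-ps7 of 20 CPM or more, which has 28 libraries in each group (a log2 ratio of at least 1.008 against at most 0.774). Of the first groups, 36 high-ratio and 12 low-ratio libraries are among these 113, so the second comparison is no independent repeat. The 113 also hold outlying libraries. On the first principal component of the tested genes (26.8% of the variance), E21 libraries among the 113 lay at -77.6, -64.7 and -60.7. The next lowest of the 113 was at -16.1, and the lowest of the low set at -49.5. All of these outlying libraries are in the low-ratio group of the 113, and fits without them were not run.

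Identifier formats and depth were also compared. In the high-ratio group 16 libraries were numeric and 20 E21, and in the low-ratio group 7 were numeric and 26 E21 (odds ratio 2.97, Fisher's exact test, two-sided p = 0.046). With 49 or with 14 libraries in each group this imbalance did not pass 0.05. Total counts averaged 26.0 M in the high-ratio and 22.9 M in the low-ratio group (M standing for 1000000), a difference of 3.12 M (permutation test, two-sided p = 0.11). The ranges of 16.6 to 61.2 M and 14.6 to 58.5 M overlap almost fully.

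Over all kept libraries, 10205 of 15325 tested genes differed between the groups (limma, Benjamini-Hochberg adjusted p under 0.05), which is 66.6% of the genes. Of all genes, 36.9% were higher and 29.7% were lower in the high-ratio group, and 1033 of those called changed by at least 0.5 on the log2 scale. In the 113 libraries, 2747 genes differed (17.9%), of which 11.3% of all genes were higher and 6.63% lower, and 27 changed by at least 0.5. Every count of a gene group below has to be read against these shares. Of the libraries between the groups, the upper against the lower ones of the ranking (74 libraries, called the inner comparison) gave 4 genes (0.0261%). Groups drawn within numeric libraries (28 libraries together) gave 26 genes (0.17%). The E21 libraries include 31 of the 34 with low Rps14-ps7, and groups drawn within them (38 libraries together) gave 10242 (66.8%). These fits hold fewer libraries than the 72 of the first comparison. The log2 ratio also varied less in numeric (SD 0.165) than in E21 libraries (SD 0.235).

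Genes known to mark D1-type neurons that were called were higher in the high-ratio group. The lists used here share members, among them Isl1 and Tshz1 of the D1 and eccentric cell lists. Of 14 listed genes other than Drd1, 11 rose over all kept libraries, 0 fell, and the median change was 0.26 against 0.03 for all tested genes. In the 113 libraries 5 rose and 0 fell, with a median of 0.11 against 0.01 for all genes. Slc35d3, a nucleotide sugar carrier that helps D1 receptors reach the cell surface, had 45.8 to 85.3 CPM (median 64.8) in the high-ratio and 29.5 to 84.3 CPM (median 52.1) in the low-ratio group of those 113. The ranges overlap almost to the top, and the high-ratio group was higher by 0.33 (SE 0.08, limma adjusted p = 0.0028). Chrm4, the muscarinic M4 receptor of D1-type cells, was 57.1 to 104 CPM (median 91.3) against 46.1 to 98.1 CPM (median 80.7), a change of 0.20 (SE 0.06, limma adjusted p = 0.020). Isl1, a transcription factor of the striatonigral lineage, had medians of 7.01 and 5.51 CPM and rose by 0.44 (SE 0.13, limma adjusted p = 0.015). Tshz1, a transcription factor gene that is also on the eccentric cell list, rose by 0.31 (SE 0.06, limma adjusted p = 0.00068) and Lingo2, a neuronal membrane protein gene, by 0.28 (SE 0.06, limma adjusted p = 0.0012). Over all kept libraries Slc35d3, Chrm4, Isl1, Tshz1 and Lingo2 rose by 0.37, 0.27, 0.33, 0.51 and 0.53, with limma adjusted p of 0.0029 or less.

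The D1 peptide genes did not pass within the 113 libraries. Pdyn, which encodes prodynorphin, was 0.21 higher over all kept libraries (SE 0.06, limma adjusted p = 0.0020) and 0.16 within the 113 libraries, where it did not pass (SE 0.08, limma adjusted p = 0.15). Tac1, which encodes substance P, had 173 to 301 CPM (median 245) in the high-ratio and 138 to 377.2 CPM (median 255) in the low-ratio group of all kept libraries. The low-ratio group spans the whole range of the high-ratio group, with a difference of -0.01 (SE 0.06, limma adjusted p = 0.93). In the 113 libraries the medians were 239 and 208 CPM (0.12, SE 0.08, limma adjusted p = 0.27). Eya1, a transcriptional co-activator gene, and Sfxn1, a mitochondrial carrier gene that starts 17.7 kb from Drd1, passed in neither comparison (-0.12 and 0.00 over all kept libraries, limma adjusted p = 0.21 and 0.99). Reln, the secreted matrix protein reelin, rose by 0.36 over all kept libraries but was at -0.04 within the 113 (limma adjusted p = 4.9e-05 and 0.74). Ebf1, a lineage transcription factor, rose by 0.18 over all and was at 0.08 within the 113 (limma adjusted p = 0.017 and 0.54).

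Genes known to mark D2-type neurons were called in both directions over all kept libraries and in neither within the 113. Of 11 listed genes other than Drd2, 5 rose and 3 fell over all kept libraries, with a median of 0.12. Of all tested genes 36.9% were higher and 29.7% lower there, so these counts lie near the shares of all genes. Within the 113 libraries 0 passed in either direction, with a median of 0.02. Of all genes 17.9% were called there, so 0 of 11 is not far from that share. Penk, which encodes the enkephalin precursor, had 988 to 1583 CPM (median 1242) in the high-ratio and 509 to 1912 CPM (median 1269) in the low-ratio group of the 113. The low-ratio group holds both the lowest and the highest libraries, and the difference was 0.02 (SE 0.09, limma adjusted p = 0.90). Adora2a, the adenosine 2A receptor gene, was 209 to 414 CPM (median 320) against 161 to 415 CPM (median 326), a difference of 0.00 (SE 0.07, limma adjusted p = 0.99). Gpr6, an orphan receptor of D2-type cells, fell by 0.24 over all kept libraries (SE 0.07, limma adjusted p = 0.0021), with medians of 91.4 and 106 CPM, and was at -0.03 within the 113 (SE 0.08, limma adjusted p = 0.80). With cortical, oligodendrocyte and astrocyte scores as covariates over all kept libraries, Penk and Adora2a were called lower, at -0.11 and -0.09 (limma adjusted p = 0.043 and 0.046). Upb1, an enzyme gene of pyrimidine breakdown, and Ttc12, a cilium gene that starts 138.5 kb from Drd2, fell by 0.23 and by 0.27 over all and did not pass within the 113 (-0.17 and -0.13, limma adjusted p = 0.077 and 0.23). Grik3, a kainate receptor subunit, rose by 1.47 over all kept libraries, with medians of 27.9 and 9.87 CPM. In the 113 libraries its medians were 27.9 and 26.9 CPM, and it did not pass (0.32, SE 0.25, limma adjusted p = 0.37). Sp9 and Rreb1, transcription factor genes, and Ptprm, a receptor phosphatase gene, also rose over all (0.44, 0.44 and 0.36) and did not pass within the 113 (limma adjusted p = 0.11, 0.58 and 0.070). Gpr52, an orphan receptor gene, passed in neither (0.12 and 0.14).

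**Figure D3:**
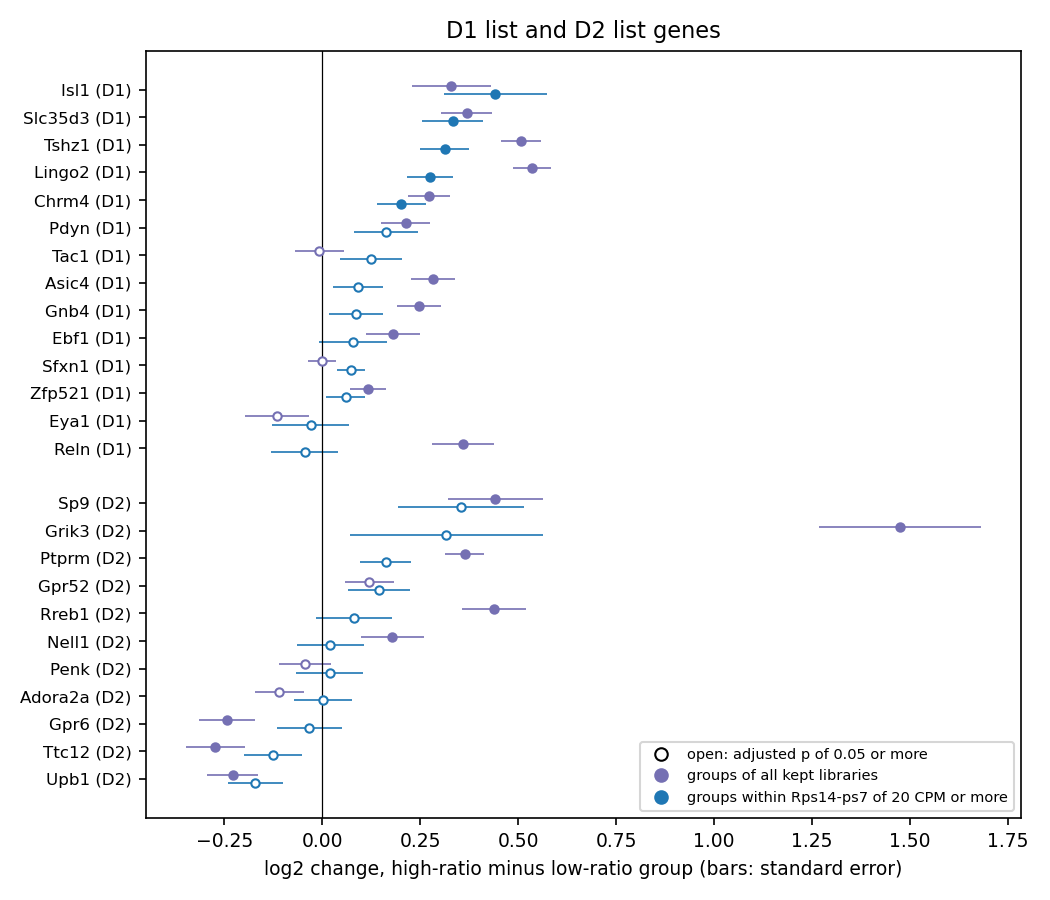
Log2 change of each D1 list and D2 list gene, high-ratio minus low-ratio group (horizontal, bars are standard errors), over all kept libraries and within the 113 libraries with Rps14-ps7 of 20 CPM or more, with filled points for limma adjusted p under 0.05. Filled points of the second comparison are 5 D1 list genes and 0 D2 list genes.

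Rankings by 1 receptor alone gave other directions. With libraries ranked by Drd1 alone 10203 genes were called, and Penk, Adora2a and Gpr6 rose together with Drd1 (0.40, 0.34 and 0.31), as did Pdyn, Tac1 and Chrm4 (0.55, 0.30 and 0.53). Ranked by Drd2 alone, with the libraries low in Drd2 taking the place of the high-ratio group, 5017 genes were called, and Penk, Adora2a and Gpr6 changed by -0.55, -0.58 and -0.65, and so did the D1 genes Pdyn (-0.44), Tac1 (-0.32) and Chrm4 (-0.29). These markers of both cell types thus moved in the same direction as the receptor used.

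Eccentric or island cell genes were mostly higher in the high-ratio group. Of 12 tested genes 11 rose over all kept libraries (median 0.56) and 9 within the 113 (median 0.31), with 0 lower in either. Otof, which encodes the calcium sensor otoferlin, had 60.5 to 131 CPM (median 95.2) in the high-ratio and 48.4 to 96.6 CPM (median 66.3) in the low-ratio group of the 113. In the high-ratio group 27 of 28 libraries exceeded the low-ratio median, and the rise was 0.51 (SE 0.07, limma adjusted p = 5.7e-06). It was also 1 of the 4 genes called in the inner comparison (0.30, limma adjusted p = 0.049). Foxp2, a transcription factor gene on the eccentric and the shared medium spiny neuron list, rose by 0.46 (SE 0.08, limma adjusted p = 0.00022), from a median of 63.5 to 84.9 CPM. Adarb2, an RNA-binding protein gene, rose by 0.31 (SE 0.06, limma adjusted p = 0.00073). Over all kept libraries Otof, Foxp2 and Adarb2 rose by 0.81, 0.63 and 0.59 (limma adjusted p = 2.0e-15, 8.6e-13 and 3.0e-17). Drd3, the D3 dopamine receptor gene on the same list, rose by 0.87 over all kept libraries but not within the 113 (0.33, limma adjusted p = 0.053), at medians of 2.71 and 2.13 CPM there. Drd5, the other D1-class receptor gene, did not pass (0.17 and -0.02, limma adjusted p = 0.22 and 0.93).

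Cholinergic interneuron genes were higher in the high-ratio group in both comparisons. Of 11 tested genes 8 rose over all kept libraries (median 0.29) and 8 within the 113 (median 0.30), and 0 fell. Slc5a7, the choline transporter of acetylcholine-releasing cells, was 26.2 to 50.4 CPM (median 40.5) in the high-ratio and 10.4 to 45.0 CPM (median 27.0) in the low-ratio group of the 113. Of the 28 low-ratio libraries 2 exceeded the high-ratio median, and the rise was 0.53 (SE 0.10, limma adjusted p = 0.00024). Chat, which makes acetylcholine, rose by 0.30 (SE 0.09, limma adjusted p = 0.010) and Slc17a8, the vesicular glutamate transporter of these interneurons, by 0.38 (SE 0.08, limma adjusted p = 0.00080). Over all kept libraries Slc5a7, Chat and Slc17a8 rose by 0.78, 0.49 and 0.68 (limma adjusted p = 8.8e-13, 7.1e-09 and 3.7e-14). Of 18 GABA interneuron genes 9 rose and 2 fell over all kept libraries, and 3 rose and 0 fell within the 113, among them Nos1, the neuronal nitric oxide synthase (0.30, SE 0.07, limma adjusted p = 0.0024). The share of GABA interneuron genes called in either direction is near that of all tested genes, 66.6% over all kept libraries and 17.9% within the 113.

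Genes shared by both kinds of medium spiny neuron were called higher in part. Of 24 listed genes 14 rose and 1 fell over all kept libraries, and 9 rose, 0 fell and 15 did not pass within the 113 (medians 0.24 and 0.17). Pde10a, the striatal cyclic nucleotide phosphodiesterase, had 427 to 999 CPM (median 779) in the high-ratio and 186 to 899 CPM (median 648) in the low-ratio group of the 113. The lowest libraries lie in the low-ratio group, and the rise was 0.34 (SE 0.10, limma adjusted p = 0.011). Gad2, a GABA-synthesising enzyme, rose by 0.52 (SE 0.16, limma adjusted p = 0.022) and Bcl11b, a transcription factor of these neurons, by 0.26 (SE 0.08, limma adjusted p = 0.018). Pde10a, Gad2 and Bcl11b rose by 0.67, 1.04 and 0.45 over all kept libraries (limma adjusted p = 3.4e-11, 1.0e-10 and 6.4e-09).

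Among the downstream genes of both receptors, the cyclic AMP pathway of the D1 side held 10 rises and 4 falls in 19 genes over all kept libraries, and 6 rises and 0 falls within the 113. Creb1, the cyclic AMP response factor, rose by 0.25 (SE 0.06, limma adjusted p = 0.0033) there, Prkar2b, a regulatory subunit of protein kinase A, by 0.21 (SE 0.05, limma adjusted p = 0.0033), and Akap5, its anchoring protein, by 0.28 (SE 0.10, limma adjusted p = 0.036). Adcy1, an adenylyl cyclase, rose by 1.48 over all kept libraries, with medians of 45.1 and 13.7 CPM, and did not pass within the 113 (0.28, SE 0.26, limma adjusted p = 0.47). The Gi side held 9 rises and 5 falls in 20 genes over all, and 1 rise and 2 falls within the 113. Rgs8, a regulator that shortens G protein signals, was the rise (0.20, limma adjusted p = 0.016), and Rgs10, a regulator known from microglia, was 1 of the falls (-0.23, limma adjusted p = 0.015). Gnai2, a Gi subunit, fell by 0.35 over all and was at -0.07 within the 113 (limma adjusted p = 0.16). Of all tested genes 36.9% were higher and 29.7% lower over all kept libraries, and 11.3% and 6.63% within the 113. The counts of the Gi side lie near these shares.

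Of 8 opioid genes 5 rose and 1 fell over all kept libraries, and 3 rose and 0 fell within the 113. The receptor genes Oprm1 (mu), Oprd1 (delta), Oprk1 (kappa) and Oprl1 (nociceptin) rose by 1.17, 0.64, 0.43 and 0.37 over all kept libraries. Within the 113 the first 3 rose by 0.42, 0.27 and 0.25 (limma adjusted p = 0.026, 0.047 and 0.0046) and Oprl1 did not pass (0.11, limma adjusted p = 0.26). Oprm1 and Oprd1 are low, with medians of 4.22 and 3.28 CPM in the high-ratio group of the 113. Of the peptide genes, Pdyn rose over all kept libraries only (0.21 and 0.16, limma adjusted p = 0.0020 and 0.15), and Penk passed in neither (-0.04 and 0.02, limma adjusted p = 0.56 and 0.90). Pnoc, the nociceptin precursor, passed in neither (-0.23 in both, limma adjusted p = 0.051 and 0.18). Pomc, the beta-endorphin precursor, fell by 0.23 over all kept libraries and did not pass within the 113 (limma adjusted p = 0.0076 and 0.56). Of 27 transmitter receptor genes of these neurons, opioid receptors included, 19 rose and 2 fell over all kept libraries, and 12 rose and 1 fell within the 113. Htr4, a serotonin receptor coupled to cyclic AMP, was 8.12 to 24.3 CPM (median 12.6) against 3.29 to 16.3 CPM (median 8.35) and rose by 0.68 (SE 0.11, limma adjusted p = 0.00015). Grm5, a metabotropic glutamate receptor, rose by 0.39 (SE 0.09, limma adjusted p = 0.0027). Htr4 and Grm5 rose by 0.98 and 0.73 over all kept libraries (limma adjusted p = 2.0e-15 and 6.7e-13).

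Lists of regional genes were called higher in part. Of 10 genes of the dorsolateral and core striatum 8 rose and 1 fell over all kept libraries (median 0.33), and 6 rose and 0 fell within the 113 (median 0.20). Of 9 patch genes 7 rose and 1 fell over all, and 3 rose and 1 fell within the 113. Of 12 matrix genes 5 rose and 1 fell over all, a share of rises near the 36.9% of all genes. Within the 113 libraries 3 matrix genes rose and 0 fell, where 11.3% of all genes were higher. Of 15 genes of the ventral and medial accumbens 6 rose and 3 fell over all kept libraries, a share of rises near that of all genes, and 5 rose and 0 fell within the 113. Calcr, the calcitonin receptor, rose by 0.72 within the 113 (SE 0.23, limma adjusted p = 0.023), with 13.2 to 63.4 CPM (median 27.4) in the high-ratio and 2.44 to 86.8 CPM (median 17.8) in the low-ratio group. The highest library of all is thus in the low-ratio group, and over all kept libraries Calcr did not pass (0.33, limma adjusted p = 0.11). Dlk1, a Notch ligand relative, and Peg10, an imprinted gene, rose by 0.62 and 0.39 within the 113 (limma adjusted p = 0.011 and 0.0094) and by 0.54 and 0.41 over all kept libraries (limma adjusted p = 0.00026 and 1.7e-05).

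Some single genes followed the ratio closely. By Spearman's rho over the 147 kept libraries, the genes most like the log2 ratio were Erbb4 (0.78), Usp33 (0.75), Olfm3 (0.75), Kcnh5 (0.75) and Tenm1 (0.74). Within the 113 libraries their rho was 0.65, 0.60, 0.60, 0.58 and 0.57. These are descriptions, and a gene's level and the ratio share each library's depth and set. Olfm3, an olfactomedin secreted at synapses, was 91.8 to 172 CPM (median 135) in the high-ratio and 51.2 to 128 CPM (median 81.4) in the low-ratio group of the 113. All 28 high-ratio libraries exceeded the low-ratio median and 0 of the low-ratio libraries exceeded the high-ratio median, although the ranges still overlap. It rose by 0.58 (SE 0.08, limma adjusted p = 7.4e-06). Erbb4, the neuregulin receptor, rose by 0.46 (SE 0.06, limma adjusted p = 5.7e-06), Tenm1, a teneurin adhesion molecule, by 0.48 (SE 0.08, limma adjusted p = 0.00022), Kcnh5, a potassium channel, by 0.44 (SE 0.07, limma adjusted p = 0.00016), and Usp33, a deubiquitinase, by 0.27 (SE 0.05, limma adjusted p = 0.00057). Adra2b, the alpha-2B adrenergic receptor, was 4.41 to 9.19 CPM (median 6.80) against 1.17 to 8.10 CPM (median 4.56). In the high-ratio group 26 of 28 libraries exceeded the low-ratio median, and the rise was 0.59 (SE 0.09, limma adjusted p = 6.8e-05).

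Of the 26 genes called within numeric libraries alone, all of which have high Rps14-ps7, 24 rose and 2 fell. Olfm3 (0.57), Erbb4 (0.38), Adra2b (0.60) and Tenm1 (0.38) were among the rises, with limma adjusted p between 0.046 and 0.049. Nova1, a neuronal splicing factor gene, rose there by 0.22 (limma adjusted p = 0.046), within the 113 by 0.22 (limma adjusted p = 0.00023) and in the inner comparison by 0.16 (limma adjusted p = 0.037).

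**Figure D4:**
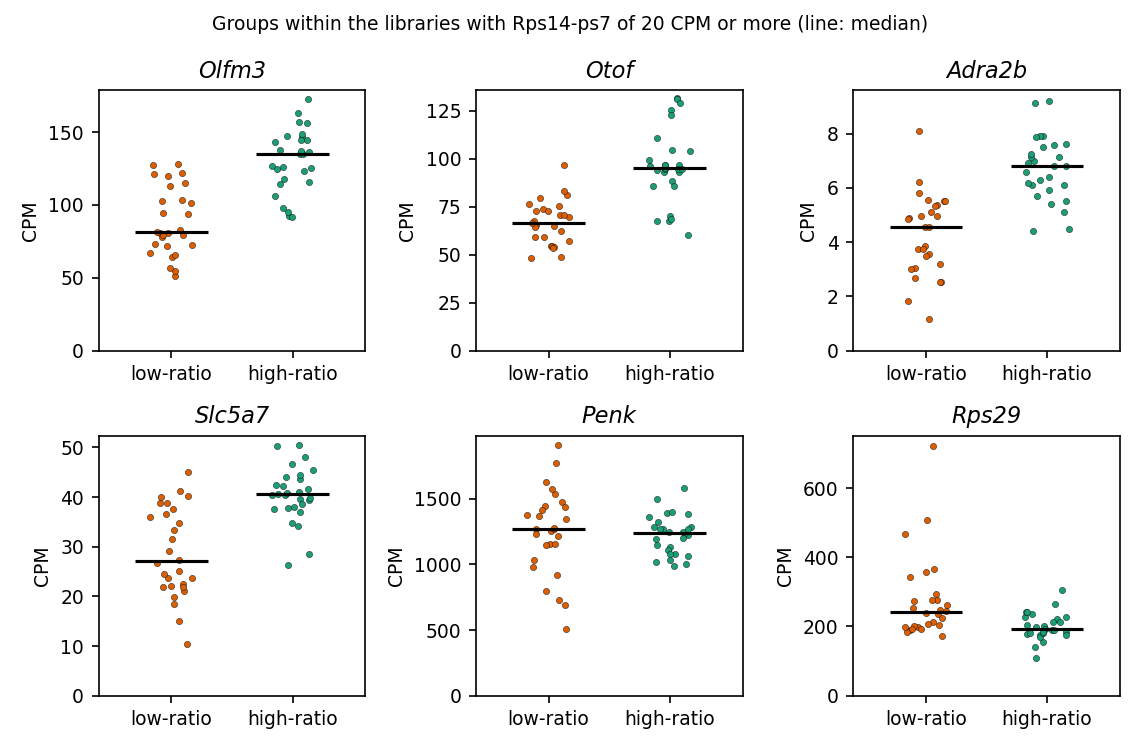
CPM (vertical, from 0) of 6 genes in each library of the high-ratio and low-ratio group within the 113 libraries with Rps14-ps7 of 20 CPM or more, with lines at the medians. Olfm3 medians are 135 against 81.4 CPM and Penk medians 1242 against 1269 CPM.

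Among the largest rises over all kept libraries, Slc7a14, a lysosomal transporter gene, rose by 1.69 (SE 0.21, limma adjusted p = 2.4e-10), with 11.7 to 54.4 CPM (median 36.7) in the high-ratio and 1.025 to 46.4 CPM (median 12.0) in the low-ratio group. Sv2c, a synaptic vesicle protein of the basal ganglia, rose by 1.65, and Gprin3, a G protein partner known from D2-type cells, by 1.57. Within the 113 libraries Slc7a14 did not pass (0.54, limma adjusted p = 0.12), while Sv2c and Gprin3 rose by 0.60 each (limma adjusted p = 0.037 and 0.014). The falls over all kept libraries included Cox7a2l2 (-1.41), Rpl37 (-1.39) and Gins2 (-1.38), respectively named as a copy of a respiratory chain gene, a ribosomal protein gene and a DNA replication gene. Within the 113 these were at -0.15, 0.08 and -0.50 and did not pass (limma adjusted p = 0.67, 0.79 and 0.10). Rpl37 had medians of 5.95 and 23.8 CPM over all kept libraries, and reads may be shared with its copies.

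Ribosomal protein genes ran against the ratio. Of 77 tested genes 74 fell and 1 rose over all kept libraries, with a median of -0.45, and 67 fell and 0 rose within the 113 libraries, with a median of -0.25. Their summed level was 15400 CPM (median, from 12765 to 22274) in the high-ratio and 21991 CPM (from 15366 to 30432) in the low-ratio group of all kept libraries, and 15400 against 17331 CPM within the 113. Rps29 was 108 to 304 CPM (median 192) against 173 to 721 CPM (median 241) within the 113 and fell by 0.40 (SE 0.10, limma adjusted p = 0.0062). Rps15 fell by 0.36 (SE 0.07, limma adjusted p = 0.00087) and was among the 5 genes with the lowest rho with the ratio over the 147 libraries (-0.70), together with Cnih2, an AMPA receptor partner (-0.72), and Slc3a2, an amino acid transporter subunit (-0.71).

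A score of these genes, the mean of their standardised log2 values, fell as the ratio rose inside each set of libraries. Pearson's r was -0.31 in 56 numeric libraries (Spearman's rho -0.33, permutation p = 0.020 and 0.012, adjusted 0.023 and 0.016). It was -0.54 in the 45 E21 libraries with high Rps14-ps7 (rho -0.42, permutation p = 0.00019 and 0.0049, adjusted 0.00038 and 0.0099) and -0.46 in the 34 libraries with low Rps14-ps7 (rho -0.36, permutation p = 0.0061 and 0.037, adjusted 0.0081 and 0.043). Without the 2 libraries whose ratios lie farthest from the median, r was -0.33, -0.43 and -0.33. In all, 8 relations were computed and adjusted together, of the ratio with this score and with the first principal component. The component was signed so that ribosomal protein genes lie on its negative side on average. Its r did not pass in the numeric libraries (0.23, rho 0.22, permutation p = 0.093 and 0.11). It was 0.56 in the 45 E21 libraries with high Rps14-ps7, 0.42 in the 113 and 0.52 in the 34.

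**Figure D5:**
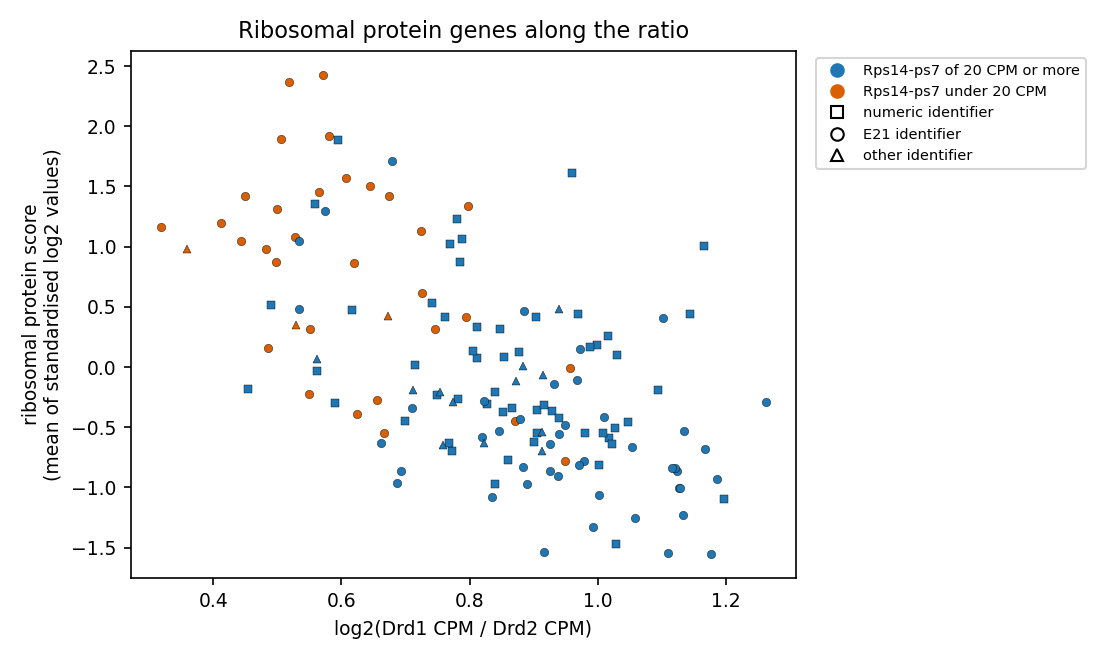
Ribosomal protein score (vertical, mean of standardised log2 values) against log2 ratio (horizontal) for the 147 kept libraries, with colour for the level of Rps14-ps7 and shape for the identifier format. The score falls along the ratio within both colours, with r of -0.46 in the 34 libraries with low Rps14-ps7.

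The direction of change also went with the genomic span of a gene. Over all kept libraries the median change was -0.20 in 1836 genes under 5 kb and 0.27 in 953 genes over 200 kb, with 59.8% of the first lower and 72.2% of the second higher. Within the 113 libraries the medians were -0.08 and 0.12, with 20.5% of the first lower and 30.0% of the second higher. Pearson's r between log10 span and change was 0.44 and 0.39 across genes, which are not independent replicates. The part of span and of ribosomal protein genes in each marker result was not tested beyond the fit that follows. With the ribosomal protein score as a covariate, 12 genes (0.0783%) were called within the 113 libraries, and at an unadjusted p under 0.05 there were 1646. The 12 include Olfm3 (0.50), Adra2b (0.60), Otof (0.40), Erbb4 (0.27), Rfesd (0.25), Tmem168 (0.27), Flrt2 (0.24) and the single fall Mpped1 (-0.23), with limma adjusted p between 0.0056 and 0.050. Rfesd encodes an iron-sulfur protein, Tmem168 a membrane protein, Flrt2 an adhesion molecule and Mpped1 a phosphoesterase. In that fit Slc35d3 (0.34, limma adjusted p = 0.082), Foxp2 (0.37, limma adjusted p = 0.072) and Slc5a7 (0.40, limma adjusted p = 0.082) did not pass, and Oprm1 (0.06) and Gad2 (0.13) were nearer 0. By list, 0 of 14 D1 genes (median 0.10), 1 of 12 eccentric cell genes (median 0.20) and 0 of 11 cholinergic genes (median 0.27) were called in it.

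Of the glial lists, microglial genes were called lower in both comparisons, 10 of 11 over all kept libraries and 7 of 11 within the 113 (median -0.24), with a summed level of 461 CPM (from 395 to 679) against 505 CPM (from 425 to 854) there. Trem2, a microglial receptor, fell by 0.36 (SE 0.08, limma adjusted p = 0.0014) and C1qb, a complement subunit, by 0.28 (SE 0.08, limma adjusted p = 0.015). With the ribosomal protein score in the fit of the 113 libraries, 0 of 11 microglial genes were called and their median was -0.02. Of 12 astrocyte genes 7 fell over all and 1 within the 113, S100b (-0.19, limma adjusted p = 0.039). Of 12 oligodendrocyte genes 4 fell and 1 rose over all, and 0 passed within the 113, where Mbp, the main myelin gene, was at -0.20 (limma adjusted p = 0.10). Of 10 oligodendrocyte precursor genes 4 rose and 4 fell over all, and 0 passed within the 113. Of all tested genes 36.9% were higher and 29.7% lower over all kept libraries. The precursor counts and the falls of the oligodendrocyte list lie near these shares. All 6 tested blood genes fell over all, and 0 passed within the 113, where their median was -0.28, or 0.17 with the ribosomal protein score. Hba-a1, an alpha-globin gene, was at -0.68 and -0.31 in the 2 comparisons. Cortical glutamatergic genes, which mark tissue from outside the striatum, summed to between 94.9 and 1504 CPM in the high-ratio and 56.5 and 1858 CPM in the low-ratio group of all kept libraries, with 2 of 12 genes higher and 1 lower. Within the 113 their summed level had a median of 450 CPM in the high-ratio and 678 CPM in the low-ratio group, with a median change of -0.25 and 0 of 12 genes called. With cortical, oligodendrocyte and astrocyte scores as covariates over all kept libraries 10260 genes were called, against 10205 without them, and the part of microglial and blood genes was not tested. In each of these lists 0 genes were at 0 in all libraries. Zbtb16, a transcription factor gene induced by glucocorticoids, fell by 0.59 within the 113 (SE 0.16, limma adjusted p = 0.0091) and by 0.36 over all kept libraries (limma adjusted p = 0.020), with medians of 12.6 and 20.7 CPM within the 113.

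Genes near each receptor gene were compared too. Of all tested genes 66.6% were called over all kept libraries and 17.9% within the 113, and the counts near the receptor genes do not stand out from these shares. Within 500 kb of the Drd1 start, 8 genes were tested, of which 5 were called over all kept libraries and 1 within the 113. Among them was Hrh2, the histamine H2 receptor gene, which rose by 0.36 over all kept libraries (limma adjusted p = 3.5e-07) and did not pass within the 113 (0.08, limma adjusted p = 0.29). Simc1, a SUMO-binding protein gene on the same side, rose in both (0.27 and 0.17, limma adjusted p = 8.5e-08 and 0.013). Within 500 kb of the Drd2 start, 7 genes were tested, of which 5 were called over all kept libraries. Ankk1, a kinase gene 79.6 kb away, rose by 0.32 and Ncam1, a cell adhesion gene 456.7 kb away, by 0.18 over all kept libraries (limma adjusted p = 0.0083 and 1.2e-06), and 0 of the 7 passed within the 113.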

How the data were processed

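PolyA RNA of the nucleus accumbens core was sequenced in 192 rats, of which 159 have values here. The remaining 33 carry a removal note in the labels and were not analysed here. The submitters' processing notes name kallisto 0.48 without its role. By their range, the deposited numbers are log2 values of 1 plus an expected count for each gene, with no library scaling. No source used here gives the annotation, but 100.0% of gene starts matched to RefSeq by symbol lie within 1 base of an end of that gene on GRCr8. Values were returned to counts, scaled to CPM and tested as log2(CPM + 1), which understates changes of low genes, keeping genes averaging 1 CPM or more, with limma 3.58.1 in R 4.3.3 (intensity trend, Benjamini-Hochberg, 0.05), tested on simulated data first. Python 3.11.15 and scipy 1.17.1 did the rest. Permutation tests used 100000 resamples, whose smallest p is 1e-05. Depth was 14.6 to 61.2 M per kept library, so 1 CPM rests on at least 14.6 expected counts. Expected counts of copies, overlapping genes and antisense genes can share reads. The highest correlation between 2 libraries was 0.994, and none were merged.

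Members, gene lists and tests were chosen with earlier results of these data known. The text names the 12 largest rises and falls (mean of at least 5 CPM, no locus-number symbols or pseudogenes), members of the D1, D2, dopamine receptor and opioid lists, up to 4 of the other lists' members with the smallest p, neighbours within 500 kb and the 5 highest and 5 lowest rho. Not all of these are printed. Rps14-ps7 and genes named for changes within the 113 libraries, numeric libraries, the inner comparison or the score fit were chosen after their values were seen. Alternatives were other scalings, pseudocounts, filters, shares, rankings, covariates and library sets.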

Additional observations from a re-analysis of the deposited data

Results flagged for a closer look

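The change per log2 unit of ratio differed between E21 and numeric libraries in 5889 genes (limma interaction test, adjusted p under 0.05), and in 2666 when the libraries with low Rps14-ps7, all outside the numeric label, were left out. The differences below are E21 minus numeric slopes, in log2 units per log2 unit of ratio, for genes named above, and for Mt2A, a metallothionein gene among the largest falls, that passed this test. The slope was larger in E21 libraries for Slc7a14 (3.70), Adcy1 (3.58), Grik3 (3.54), Sv2c (3.14), Gprin3 (2.67), Gad2 (1.87), Sp9 (1.68), Oprm1 (1.65), Rreb1 (1.53), Drd3 (1.49), Tenm1 (1.20), Oprd1 (1.19), Nos1 (1.19), Akap5 (1.14), Grm5 (1.08), Pde10a (1.05), Kcnh5 (1.00), Reln (0.88), Htr4 (0.86), Ptprm (0.83), Bcl11b (0.82), Slc5a7 (0.81), Otof (0.78), Slc17a8 (0.73), Rgs8 (0.65), Lingo2 (0.64), Adarb2 (0.60), Hrh2 (0.59), Erbb4 (0.58), Oprl1 (0.56), Usp33 (0.52), Flrt2 (0.52), Tshz1 (0.51), Simc1 (0.48) and Ncam1 (0.40). It was lower for Rpl37 (-3.52), Cox7a2l2 (-3.16), Gins2 (-2.63), Mt2A (-1.27), Rps29 (-1.12), C1qb (-0.94), S100b (-0.90), Tac1 (-0.78), Rgs10 (-0.78), Slc3a2 (-0.69), Rps15 (-0.66), Cnih2 (-0.58), Gnai2 (-0.57) and Sfxn1 (-0.36). Rps14-ps7 itself differed by 7.32, with slopes of 6.76 in E21 and -0.56 in numeric libraries, and by 0.42 without the low set (adjusted p = 0.68). Without the low set, 16 of these 50 genes still passed, among them Slc7a14 (2.98), Gad2 (1.94), Sp9 (2.42) and Usp33 (0.52). Otof, Erbb4, Tenm1 and Flrt2 no longer passed (0.22, 0.39, 0.58 and 0.16). Olfm3, Adra2b, Foxp2, Slc35d3 and Penk did not pass in the first place. Without the low set, the E21 libraries still included those at -77.6, -64.7 and -60.7 on the first principal component. Their log2 ratios were low (0.53, 0.68 and 0.53), and no numeric library was below -16.1. Their part in the slope differences was not tested. Labels give no batch, so format and batch cannot be told apart.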

How the results depend on the processing

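Scaling by median of ratios or quantiles, pseudocounts of 0.1 and 5, filters of none and 5 CPM, groups of 49 or 14 libraries, a slope over all kept libraries, ranking by Drd1 alone, a Drd1 minimum of 200 CPM or none, covariates for format, cell type scores or depth, E21 libraries alone and no intensity trend gave between 8538 and 11149 genes against 10205. The number of tested genes differed with the filter. No filter gave 11149 of 34235 genes and the filter of 5 CPM 8712 of 12009, against 10205 of 15325. Scaling moved the share of higher calls from 55.5% to 49.5% and 47.99%. The count moved with ranking by Drd2 alone (5017), the inner comparison (4; 2362 at an unadjusted p under 0.05) and numeric libraries alone (26). Alternatives chosen after seeing the data also moved it: the first principal component (2960), the ribosomal protein score (5251), the component with a slope (3319) and with the cortical score too (4053), and the Rps14-ps7 set as covariate (5306). Within the 113 libraries the groups gave 2747, a slope 6165, the component 718 and the ribosomal protein score 12. Within the 34 libraries with low Rps14-ps7, 8 against 8, no gene passed (0 by limma), and 3186 had an unadjusted p under 0.05. The interaction count fell from 5889 to 2666 within the 113. The format imbalance did not pass with groups of 49 (odds ratio 2.43, p = 0.075) or of 14 (odds ratio 1.5, p = 1). The cause of these changes was not tested.

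Of 2596 values of named genes under alternatives, 1929 kept direction and side of the threshold, 579 lost the call, 38 gained it and 50 turned direction with a call in the new direction. A sign change with no call in either fit (59 values) was not counted as a turn. The values that turned, by ranking on Drd2 alone, were Pdyn (-0.44), Chrm4 (-0.29), Isl1 (-0.44), Ebf1 (-0.41), Eya1 (0.37), Sfxn1 (0.11), Slc35d3 (-0.33), Gpr52 (-0.48), Sp9 (-0.32), Pnoc (0.62), Foxp2 (-0.28), Bcl11b (-0.29), Prkar2b (-0.23), Akap5 (-0.40), Rgs8 (-0.21), Chat (-0.29), Slc17a8 (-0.22), Peg10 (-0.43), Calcr (-0.97), Dlk1 (-0.76), Ankk1 (-0.31), Grm5 (-0.27). Ranked by Drd1 alone they were Tac1 (0.30), Penk (0.40), Adora2a (0.34), Gpr6 (0.31), Drd5 (-0.39). With no Drd1 minimum, which adds the 12 left-out libraries (median log2 ratio -4.90) to the ranking, the values that turned were Tac1 (0.85), Penk (0.94), Adora2a (1.34), Gpr6 (0.94), Dlk1 (-0.77), Mpped1 (0.39). With the first component they were Slc7a14 (-0.27), Tac1 (0.30), Grik3 (-0.37), Ankk1 (-0.42), with a slope and the component Slc7a14 (-0.43), Adcy1 (-0.78), Tac1 (0.60), Sfxn1 (0.18), Grik3 (-0.54), Ankk1 (-0.70), and with the cortical score too Slc7a14 (-0.44), Adcy1 (-1.17), Tac1 (0.70), Grik3 (-0.75), Ankk1 (-0.63). With the set as covariate Sfxn1 was at 0.12, and with a slope within the 113 at 0.16. Leaving out 1 library at a time was not run, since each group holds more than 5. No paired analysis was possible because replicate numbers only name libraries. Depth limits genes near 1 CPM, which rest on as few as 14.6 expected counts.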
